A study of Mus musculus with 98 samples.

Results

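The genes described are 32 markers of the cells of brain blood vessels and of the meninges: 14 genes of endothelial cells, 9 of mural cells and 9 of fibroblasts. They were chosen by name, out of 55852 gene rows over 6 count tables, and are treated as 3 separate classes. RNA was sequenced from 98 mouse samples in 22 groups, assigned by sample title, since titles and treatment labels disagree in several groups. The study raised ACSS2, which turns acetate into acetyl-CoA, with a virus named upACSS2, and compared it with a vector virus.

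The 24 unstimulated and 12 stimulated cultures were hippocampal neurons from CD1 mouse embryos that received PhP.eB virus on day 5 for 48 h and then hAD-tau or PBS on day 7. The unstimulated ones form 8 groups of 3, on days 9 and 21, with vector or upACSS2 and with hAD-tau or PBS, and the stimulated ones form 4 such groups of 3 on day 21; the stimulation is not described further. A separate set of day 21 cultures without virus held 4 libraries with hAD-tau and 3 with PBS. The mice were male, got PhP.eB virus by retro-orbital injection, and were sampled 30 minutes after a behaviour test. Aged C57BL6 mice of 22 to 23 months (12 with upACSS2, 12 with vector) got 1.5e+11 vector genomes at 21 to 22 months and were taken 2 months later, and 10-month C57BL6 mice (6 and 5) got 1.2e+11 and were taken 2 weeks later. PS19 mice, which all carry a mutant human tau transgene and have no wild-type controls here, got 1.5e+10 vector genomes at 2.5 months and were taken 1 month or 6 months later, at 3.5 or at 8.5 to 9 months of age, 5 mice per virus and time. The whole hippocampus was taken from aged mice and from the 1-month upACSS2 group of PS19, while the remaining mouse groups gave its dorsal part. Tissue and virus therefore cannot be told apart in PS19 mice at 1 month.

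Endothelial cells line the vessels and, in the brain, form the blood-brain barrier with tight junctions and selective transporters. Mural cells wrap that tube: pericytes on capillaries and contractile smooth muscle on arterioles. Fibroblasts lie in the meninges and around larger vessels, where they make collagen and other matrix. In bulk RNA, fewer cells of a type and less RNA per cell cannot be told apart.

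Levels are given as CPM, the count of a gene as a share of the library's scaled total. The depth of a library, as its summed counts, was 1.46e+07 to 3.40e+07 in unstimulated cultures, 1.88e+07 to 4.00e+07 in stimulated ones, 6.22e+06 to 3.25e+07 without virus, 1.14e+07 to 2.82e+07 in aged mice, 5.08e+06 to 1.08e+07 in 10-month mice and 6.91e+06 to 3.33e+07 in PS19 mice. Acss2 itself was at 1488 CPM or more in all cultures with upACSS2 and at 57.9 CPM or less in all with vector. In mice the difference was small or uneven: Acss2 ran from 46.7 to 61.5 CPM with upACSS2 and 40.0 to 53.7 CPM with vector in aged mice, and from 45.0 to 237 CPM and 43.1 to 56.0 CPM in PS19 mice at 6 months, and these groups overlap. In PS19 mice at 1 month it was at 146, 1190.1, 318, 60.1 and 1465 CPM with upACSS2 and from 51.5 to 66.3 CPM with vector, with overlap through upACSS2 replicate 4. In 10-month mice it ran from 49.9 to 59.3 CPM and from 42.3 to 48.9 CPM, without overlap.

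In cultures several genes that define endothelium were at or near 0. Cldn5, the main tight junction claudin of the barrier, had no count in 16 of 24 unstimulated, 12 of 12 stimulated and 7 of 7 libraries without virus. Tie1, an endothelial receptor kinase, had no count in 20, 11 and 7 of these libraries, and Cdh5, the cadherin of endothelial junctions, in 14, 11 and 6. Red blood cell genes summed to at most 0.643 CPM in any culture and to between 26.3 and 193 CPM in mice. The endothelial members with a mean of 1 CPM or more in unstimulated cultures were 3 of 14: Itm2a, a membrane protein, at 13.4 CPM, Pltp, a phospholipid transfer protein, at 11.5 CPM, and Kdr, the main VEGF receptor, at 6.91 CPM. Without virus Flt1, a VEGF receptor, and Eng, a TGF-beta co-receptor, reached it too, at 1.65 and 1.20 CPM.

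Mural and fibroblast members were uneven in cultures too. Of 9 mural members 5 reached a mean of 1 CPM in unstimulated cultures, 5 in stimulated ones and 7 without virus. In unstimulated cultures Notch3, the Notch receptor of mural cells, was at 15.4 CPM and Rgs5, a pericyte regulator of G protein signals, at 9.25 CPM. Abcc9, a pericyte potassium channel subunit, averaged 0.049 CPM there and Vtn (vitronectin) 0.144 CPM, against 5.40 and 35.7 CPM in aged mice. The means of Notch3 and Tagln went the other way, at 15.4 and 2.42 CPM against 5.86 and 2.10 CPM in aged mice. Tagln overlapped, at 1.19 to 4.87 CPM in these cultures and 1.02 to 4.44 CPM in aged mice. The remaining mural members had lower means in unstimulated cultures. Cultures and mice were counted separately and differ in strain and age, and their levels are set side by side without a test. Without virus Pdgfrb, Myl9 and Anpep were also higher than in aged mice, at 35.1, 12.9 and 5.84 CPM against 13.2, 4.12 and 1.73 CPM. Of 9 fibroblast members 5 reached 1 CPM in unstimulated cultures, 7 in stimulated ones and 5 without virus. Dcn, the matrix proteoglycan decorin, led in unstimulated cultures at 6.11 CPM. Compared per kilobase of exon, the highest of each class in unstimulated cultures were Itm2a among endothelial members (7.71 CPM per kb), Myl9, the regulatory light chain of smooth muscle myosin, among mural members (2.16), and Ptgds, a prostaglandin D synthase of the meninges, among fibroblast members (2.95).

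In mice 14 of 14 endothelial, 9 of 9 mural and 8 of 9 fibroblast members had a mean of 1 CPM or more in each table. Ptgds was the highest member per kilobase in aged, 10-month and PS19 mice, at 158, 127 and 144 CPM per kb. Vtn led the mural members at 17.6, 12.3 and 14.4 CPM per kb, and Anpep, an aminopeptidase, was lowest at 0.42, 0.30 and 0.28. Among endothelial members Emcn, a sialoprotein of capillaries and veins, was lowest at 0.51, 0.36 and 0.40 CPM per kb. Single libraries differed most in the fibroblast class: Col3a1, a fibrillar collagen, differed 13.01-fold between the highest and the lowest aged mouse, and Igf2, a growth factor, 24.7-fold between PS19 mice. Both ratios rest on low counts. Col3a1 averaged 1.19 CPM in aged mice, with 5 counts in upACSS2 replicate 4, the lowest. Igf2 averaged 0.598 CPM in PS19 mice, with 1 count in vector replicate 5 at 1 month, the lowest.

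**Figure D1:**
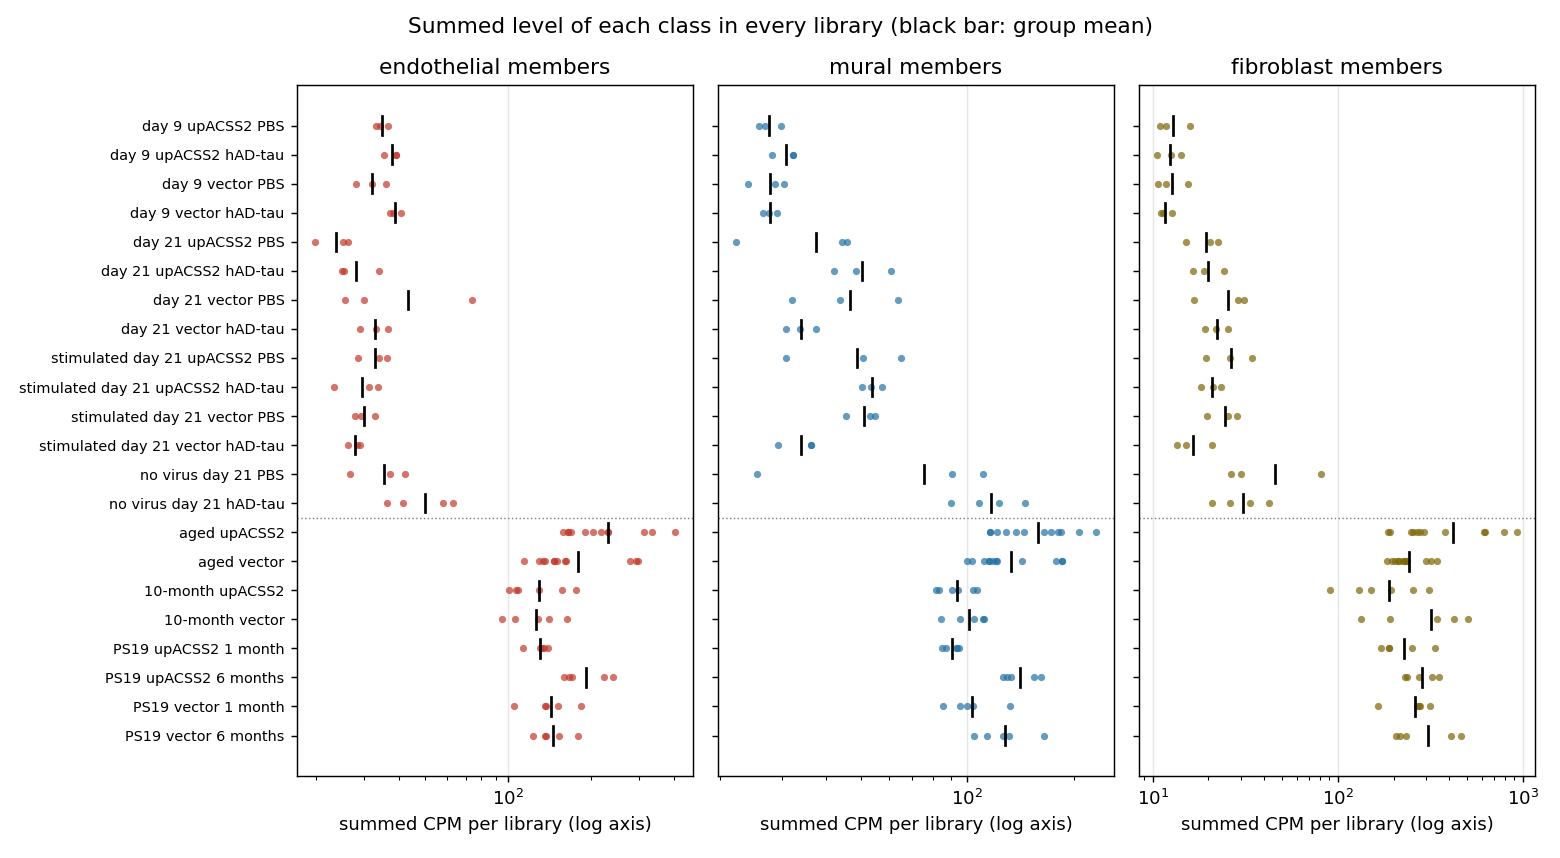
Summed CPM of the 14 endothelial, 9 mural and 9 fibroblast members in each library (dots, log axis) with group means as black bars; cultures lie above the dotted line and mice below. Endothelial sums ran from 19.9 to 74.2 CPM in day 21 cultures and from 94.7 to 403 CPM in mice. On average, Ptgds made up most of the fibroblast sum in mice.

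Between day 9 and day 21, Kdr and Esam fell and Ptgds and Tagln rose in 4 of 4 groups of culture, and Acta2 fell in 3. Of 21 tested members, 11 were called (adjusted p under 0.05, edgeR's quasi-likelihood test) in vector with PBS, where 57.7% of all genes were called. The counts were 10 in vector with hAD-tau (52.6% of genes), 8 in upACSS2 with PBS (54.3%) and 12 in upACSS2 with hAD-tau (53.6%). Changes between these days were as common among all genes, so these numbers of calls are no result about the members. The p-values between days use a shared spread, which is a limit. Fitted apart, the days had a biological coefficient of variation between replicates of 0.042 (day 9) and 0.189 (day 21).

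Kdr was at 7.08, 11.5 and 8.55 CPM on day 9 and at 4.71, 2.85 and 3.71 CPM on day 21 in vector with PBS. The days did not overlap, and Kdr fell by 1.27 ± 0.19 on the log2 scale (SE, edgeR adjusted p 1.48e-05). It fell by 1.64, 1.81 and 1.78 in the other groups, and the 4 falls held in every alternative tried. Esam, an endothelial adhesion protein, fell by 0.97, 1.05, 2.10 and 0.99, at levels under 1 CPM. Eng rose by 1.09, 1.69 and 1.53 in 3 groups and was at -0.08 in upACSS2 with PBS, also at levels under 1 CPM. In vector with PBS the call was lost in 10 of 12 alternatives for Eng and in 9 of 11 for Esam.

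Among mural members, Tagln (transgelin, an actin-binding protein of smooth muscle) was at 1.32, 1.51 and 1.52 CPM on day 9 and 3.29, 3.27 and 4.46 CPM on day 21 in vector with PBS. It rose by 1.36 ± 0.32 (edgeR adjusted p 0.00132) without overlap, and by 1.00, 1.10 and 1.22 in the others. Acta2, the actin of smooth muscle, moved the other way, from 0.797, 0.241 and 1.45 CPM to 0.0981, 0.0385 and 0.286 CPM, with overlap of the days. Acta2 fell by 2.37 ± 0.83 (edgeR adjusted p 0.0195), by 3.68 and by 2.05 in the upACSS2 groups, and its -2.30 in vector with hAD-tau was not called. Pdgfrb, the PDGF receptor that recruits pericytes, rose by 1.76, 0.96 and 1.04 in 3 groups, and Notch3 rose by 0.62, 0.76 and 0.80 in 3. Myl9 rose by 0.91 ± 0.27 in vector with PBS (edgeR adjusted p 0.00746).

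The promoters of Acta2 and Myl9 are shown because these contractile genes were called in opposite directions in vector with PBS. Myl9 was called in that group only, and lost its call in 2 of 12 alternatives. Acta2 lost its call there in 3 of 11, at levels of 1.45 CPM or less. They are RefSeq sequences on build GRCm38.p6, from 250 bases before to 50 bases after the start, 5′ to 3′ on the gene's strand, with any exact match to a CArG box, the element that serum response factor binds, in capitals.
Acta2, chr19:34255324-34255623, minus strand: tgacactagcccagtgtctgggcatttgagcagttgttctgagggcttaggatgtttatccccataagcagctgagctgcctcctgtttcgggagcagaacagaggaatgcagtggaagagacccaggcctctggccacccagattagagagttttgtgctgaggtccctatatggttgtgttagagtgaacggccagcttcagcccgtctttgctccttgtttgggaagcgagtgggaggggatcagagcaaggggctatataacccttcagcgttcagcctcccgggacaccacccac
Myl9, chr2:156775214-156775513, plus strand: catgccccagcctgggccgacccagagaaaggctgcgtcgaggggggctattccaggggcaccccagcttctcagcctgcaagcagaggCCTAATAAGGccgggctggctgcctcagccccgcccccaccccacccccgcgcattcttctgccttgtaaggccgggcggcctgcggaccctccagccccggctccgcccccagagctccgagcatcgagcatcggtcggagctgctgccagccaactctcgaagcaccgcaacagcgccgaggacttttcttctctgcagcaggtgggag
Only exact matches, CC and GG around 6 bases that are all A or T, were put in capitals, and Myl9 held 1, at position -161 from the start. With at most 1 of the 6 bases not A or T, a search added after seeing the data, the Acta2 window held 2 matches, at -84 and -34, and the Myl9 window 2, at -161 and -99. On both strands, the exact CArG box was found in 1.63% of 32851 promoters and the looser one in 9.98%, while CAGGAAG, a motif of ETS factors, was in 13.3% of them and in 2 of 11 endothelial members with a promoter in the table. A match describes the sequence and is no measure of binding.

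Among fibroblast members, Ptgds was at 1.75, 1.33 and 1.70 CPM on day 9 and 7.02, 14.2 and 17.5 CPM on day 21 in vector with PBS. It rose by 3.01 ± 0.45 (edgeR adjusted p 1.01e-05) without overlap, and by 1.83, 2.63 and 2.26 in the others. Igf2 rose by 0.88, 0.94 and 0.93 in 3 groups. The collagens Col1a1, Col1a2 and Col3a1 were called in vector with hAD-tau, where they rose by 2.37 ± 0.48, 2.15 ± 0.47 and 2.11 ± 0.68 (edgeR adjusted p 0.000368, 0.000779 and 0.0133). Whether they differ between groups was not tested.

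Of the 41 calls between days, 18 held in every left-out library and alternative. Replicate 3 of vector with PBS on day 21 stood apart, with 48.8 CPM of Pltp against 7.998 and 10.2 CPM in the other replicates. Without it Pltp's rise of 1.58 became 0.26 and Myl9's became 0.50, and neither was called. Summed astrocyte genes ran from 2317 to 2878 CPM on day 9 and from 3730 to 20609 CPM on day 21, the highest being that replicate. Oligodendrocyte genes ran from 36.2 to 45.9 CPM on day 9 and from 189 to 1250 CPM on day 21, and their precursor genes from 154 to 293 and 968 to 2185 CPM. The part of these lists in the changes between days, the rise of Ptgds among them, was not tested.

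**Figure D2:**
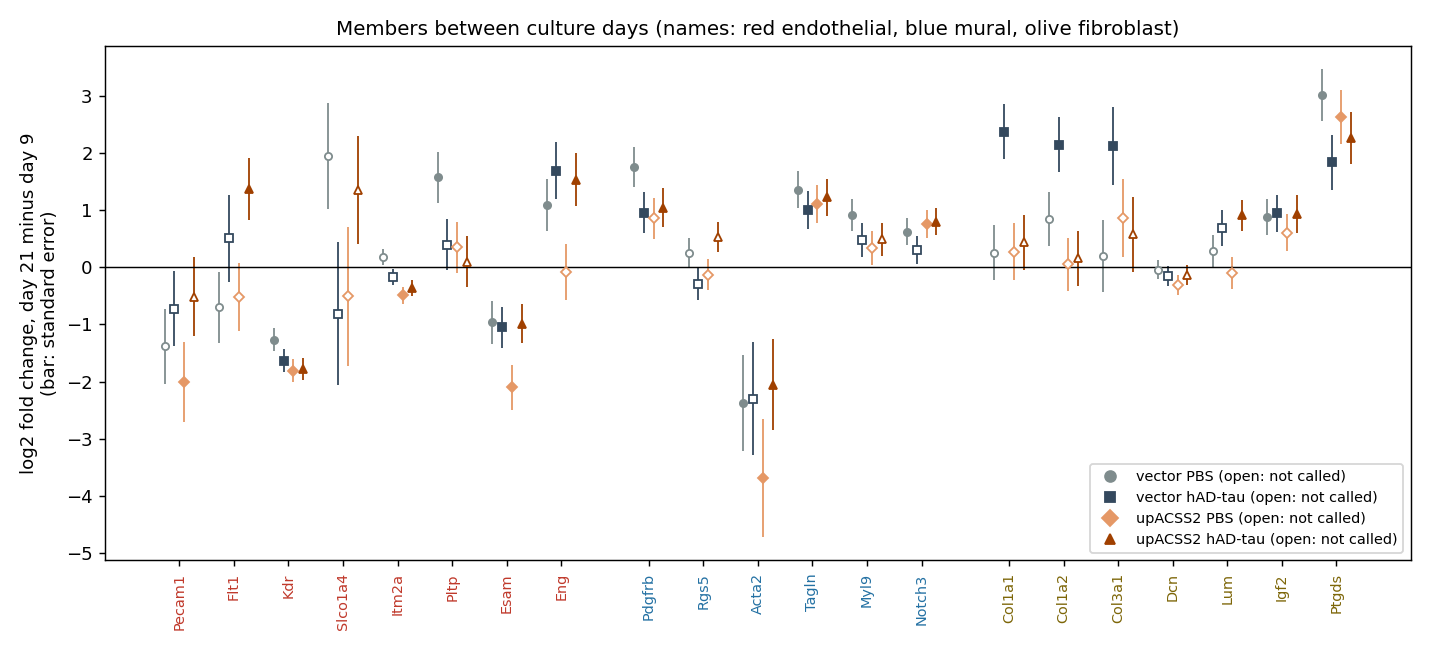
Log2 fold change from day 9 to day 21 for each of 21 tested members with standard errors, in the 4 groups of culture (symbols, filled where called). Kdr and Esam lie below 0 and Ptgds and Tagln above 0 in 4 of 4 groups.

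Few members were called for virus or hAD-tau. On day 9 none of 18 tested members was called for upACSS2 against vector in PBS (10.2% of genes), upACSS2 against vector in hAD-tau (0.692%), hAD-tau against PBS with upACSS2 (0.349%) or the interaction (0.663%). The lowest unadjusted p values in PBS were for Rgs5 at 0.40 ± 0.14 and Myl9 at -0.45 ± 0.18, Kdr at 0.36 ± 0.13 and Esam at 0.59 ± 0.35, and Ptgds at -0.31 ± 0.22 and Col3a1 at -0.60 ± 0.47. For hAD-tau against PBS with vector 1 of 18 was called, against 4.28% of genes. Pltp was at 10.98, 10.8 and 9.95 CPM with hAD-tau and 6.99, 8.26 and 7.58 CPM with PBS, did not overlap, and was higher by 0.49 ± 0.10 (edgeR adjusted p 0.00874). The call was lost without hAD-tau replicate 1 (0.46) or 2 (0.48) or PBS replicate 1 (0.41).

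On day 21 none of 18 members was called for upACSS2 against vector in PBS (0.0137% of genes) or in hAD-tau (0.0273%), for hAD-tau against PBS with vector (0%) or with upACSS2 (0%), or in the interaction (0%). The biological coefficient of variation was 0.189, against 0.042 on day 9 and 0.135 over all 24 unstimulated libraries. A fit of all 24 therefore understates the spread of day 21, and its p-values may be too small for that day. With all 24 unstimulated libraries in 1 fit, which shares the spread of both days, 3 members were called for upACSS2 in PBS on day 21, against 10.6% of genes: Itm2a at -0.74 ± 0.14, Pdgfrb at -1.20 ± 0.33 and Myl9 at -1.03 ± 0.27 (edgeR adjusted p 0.00555, 0.0300 and 0.0241). In hAD-tau that fit called 4, against 3.55% of genes: Rgs5 at 1.05 ± 0.27, Lum, the matrix proteoglycan lumican, at 1.05 ± 0.27, and Col1a1 and Col1a2 at -1.56 ± 0.43 each (edgeR adjusted p 0.0331, 0.0366, 0.0482 and 0.0472). DESeq2 called 1 member for upACSS2 in PBS. Within day 21 alone, Lum and Rgs5 were among the lowest unadjusted p values for upACSS2 in hAD-tau, at 1.06 ± 0.28 and 1.07 ± 0.33, with no overlap of groups and no call. In the day 9 and stimulated libraries Lum was at 0.84 ± 0.30 and 1.70 ± 0.48 in that comparison, also without overlap and without a call. Its levels were low, from 0.414 to 3.19 CPM in unstimulated and from 0.567 to 4.90 CPM in stimulated cultures. The share of all genes without overlap is not given for culture comparisons, so the lack of overlap alone is no result about a member. The titles do not say whether stimulated and unstimulated day 21 libraries came from the same cultures, so the stimulated value may be no independent repeat. Oligodendrocyte genes in upACSS2 with PBS, replicates 1 to 3, summed to 1658, 175 and 750 CPM stimulated and 1250, 189 and 774 CPM unstimulated.

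In stimulated cultures 1 of 17 tested members was called for hAD-tau against PBS with vector, against 3.02% of genes. Ptgds was at 4.68, 4.84 and 3.39 CPM with hAD-tau and 8.36, 9.94 and 6.84 CPM with PBS, did not overlap, and was lower, at -0.96 ± 0.23 (edgeR adjusted p 0.0487). The call was lost in 5 of 6 left-out fits, all but that without hAD-tau replicate 2. Summed astrocyte genes were at 4833, 4776 and 3092 CPM with hAD-tau and 10303, 6369.7 and 10087 CPM with PBS, and their part in the result was not tested. Same-numbered replicates deviate together here, and with the number as a block 2 members were called, against 7.16% of genes: Ptgds at -0.97 and Rgs5 at -0.68 (edgeR adjusted p 0.0277 and 0.0297).

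For upACSS2 against vector in stimulated hAD-tau cultures none of 17 was called (0.937% of genes). Rgs5 was at 14.6, 10.97 and 16.95 CPM with upACSS2 and 8.63, 5.33 and 6.65 CPM with vector, which do not overlap, at 1.05 ± 0.30 (edgeR adjusted p 0.0943). With the replicate block, where 2.67% of genes were called, Rgs5 was higher by 1.06 ± 0.15 (edgeR adjusted p 0.0108). None was called for upACSS2 against vector in PBS (0.208% of genes), hAD-tau against PBS with upACSS2 (0.208%) or the interaction (0%).

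Without virus, none of 18 members and none of 16341 genes was called for hAD-tau against PBS (0%, edgeR, with 2272 genes at an unadjusted p under 0.05). Tagln was at 6.15, 4.94, 3.25 and 7.25 CPM with hAD-tau and 2.19, 1.40 and 0.977 CPM with PBS, which do not overlap, at 1.91 ± 0.39. Dcn was at -1.41 ± 0.51, with 56.7 CPM in PBS replicate 3 against 15.3 and 12.2 CPM in the other PBS libraries. That replicate also had 11.2 CPM of Pdgfrb against 37.9 and 44.2 CPM, and 2296 CPM of astrocyte genes against 8595 and 10179 CPM. These fold changes are without pairing. With the replicate number as a block no gene was called either (0%, edgeR), with Tagln at 1.69 ± 0.23, Pltp at 0.93 ± 0.13 and Dcn at -1.02 ± 0.44.

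In aged mice 31 of 31 tested members were positive for upACSS2 against vector, and none was called. The median was 0.37 on the log2 scale against 0.00 over all 15157 genes, and 13 members had an unadjusted p under 0.05. No gene was called (0%, edgeR, with 846 at an unadjusted p under 0.05). The median was 0.44 over 14 endothelial, 0.28 over 9 mural and 0.71 over 8 fibroblast members. The lowest unadjusted p values were for Ptgds at 0.92 ± 0.26 and Col3a1 at 1.04 ± 0.31, Kdr at 0.49 ± 0.18 and Cdh5 at 0.61 ± 0.25, and Vtn at 0.37 ± 0.16 and Anpep at 0.44 ± 0.23. Each of 24 fits leaving out 1 mouse gave 31 positive members and no call, with medians of 0.31 to 0.49. Some members varied together from mouse to mouse, as given further down, and these fits share nearly all their mice. The signs are therefore not independent of each other, and their number is no test of the virus.

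The aged mice fall into 2 sets by replicate number, 6 mice numbered 1 to 3 and 18 numbered 4 to 12. Endothelial members summed to 319 ± 45.3 CPM (SD, n = 6) in the first and 168 ± 34.3 CPM (n = 18) in the second, mural members to 195 and 129 CPM, and fibroblast members to 354 and 323 CPM. For 10 of 14 endothelial, 3 of 9 mural and 0 of 9 fibroblast members all mice of the first set lay above all of the second, as they did for 4.9% of all tested genes. In a fit of the sets with the virus groups as terms, 14 of 14 endothelial, 7 of 9 mural and 0 of 8 tested fibroblast members were called higher in the first set (edgeR), against 20.8% of genes, and none was called lower. The sets are not described in the labels, and were noticed in these data. Other lists differed too: basement membrane genes summed to 81.7 and 44.7 CPM, oligodendrocyte genes to 4111 and 5294 CPM, and choroid plexus genes to 103 and 511 CPM, the last with wide overlap. Astrocyte genes (5131 and 5507 CPM), neuron genes (8048 and 8312 CPM), microglia genes (455 and 462 CPM) and blood genes (66.8 and 69.3 CPM) lay closer together.

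**Figure D3:**
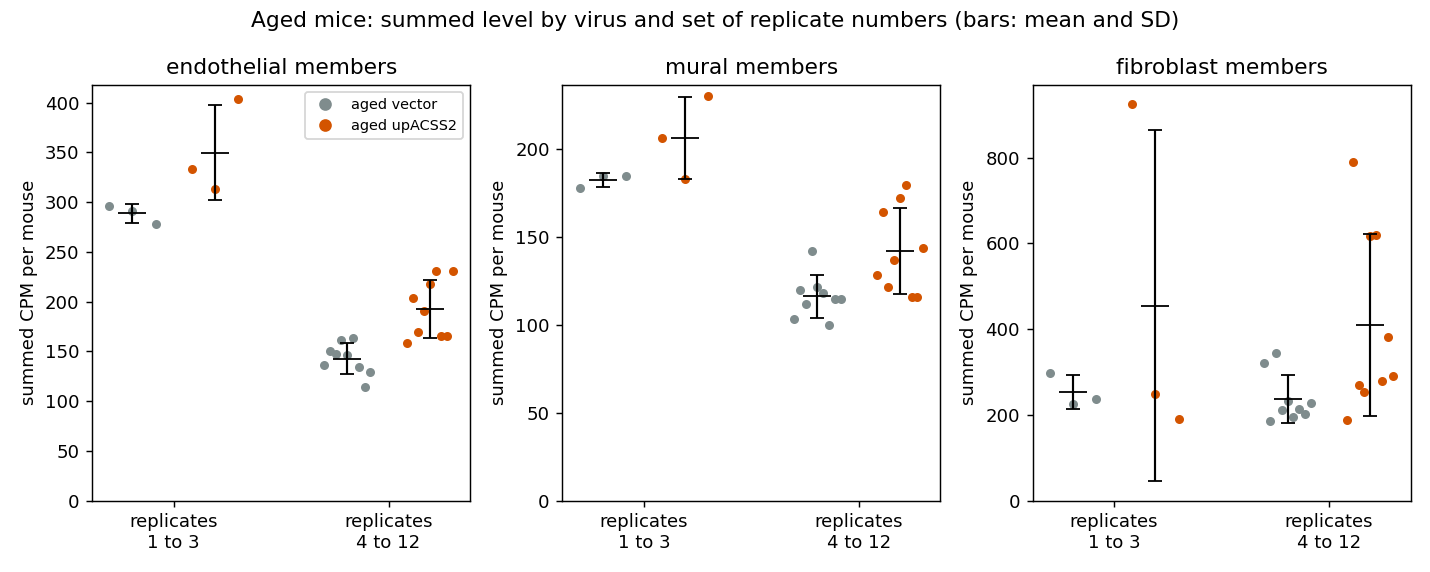
Summed CPM of each class in each aged mouse (dots) by virus and set of replicate numbers, with mean and SD as bars. Endothelial means were 349.9 with upACSS2 and 289 with vector in replicates 1 to 3, and 192 and 143 in replicates 4 to 12. On average, Ptgds made up most of the fibroblast sum.

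With a term for the sets, 5 of 31 members were called, against 0.0924% of genes, and all 5 were endothelial. Without the term no member and no gene was called. The sets were noticed in these same values, and endothelial members are among the genes that differ between them. The calls rest on that split and are no independent support. Eng was at 17.5, 18.3 and 22.9 CPM with upACSS2 and 16.9, 13.6 and 17.02 CPM with vector in replicates 1 to 3. In replicates 4 to 12 Eng ran from 7.81 to 12 CPM (median 9.82) with upACSS2 and from 5.11 to 7.51 CPM (median 6.11) with vector, without overlap. Its difference was 0.56 ± 0.08 (edgeR adjusted p 0.00215). The others were Pecam1, the adhesion protein CD31, at 0.57 ± 0.10, Tie1 at 0.68 ± 0.12, Cdh5 at 0.66 ± 0.13 and Flt1 at 0.44 ± 0.08 (edgeR adjusted p 0.0243, 0.0243, 0.0329 and 0.0329). In replicates 4 to 12 alone 1 of 31 was called, Eng (0.0392% of genes), and 8 of 9 upACSS2 mice lay above every vector mouse for Cdh5 and Tie1. In replicates 1 to 3 alone none was called (0%), and 13 of 14 endothelial members were positive.

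**Figure D4:**
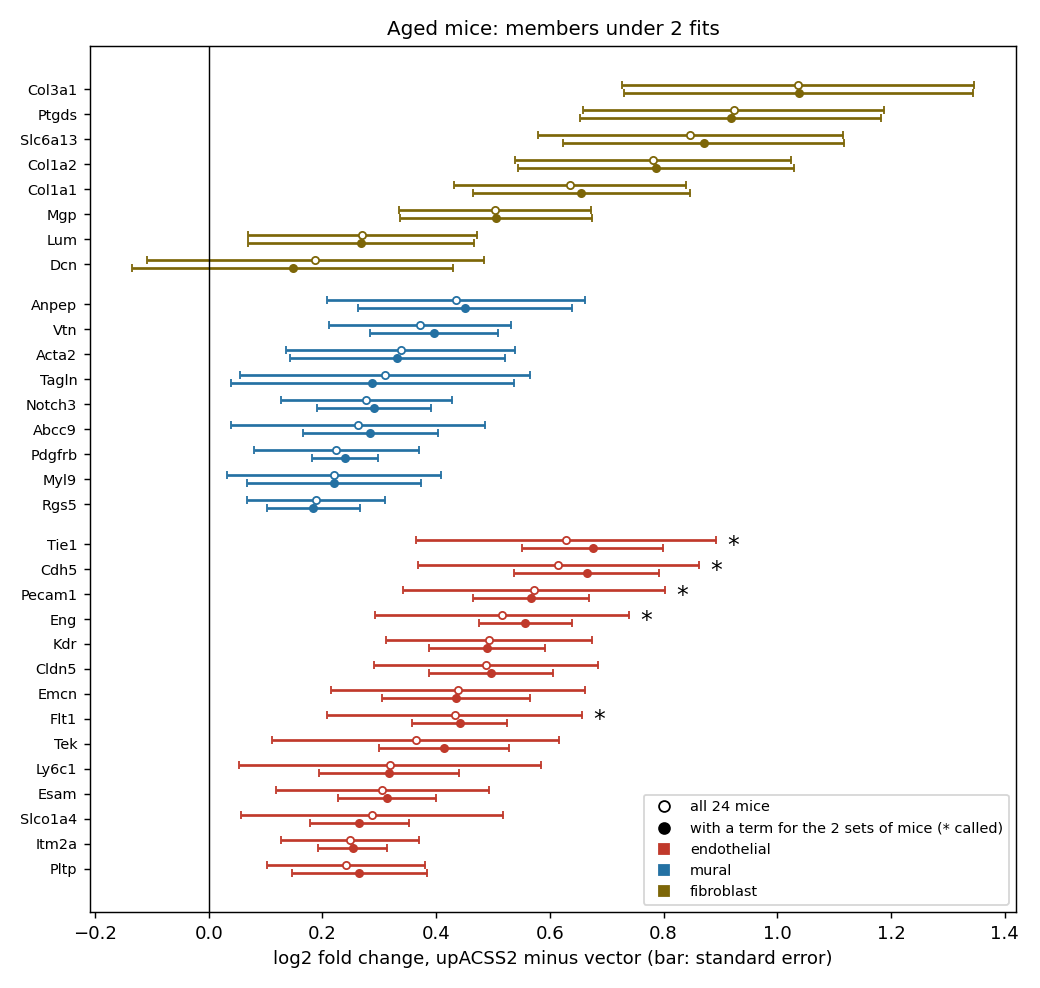
Log2 fold change of upACSS2 against vector in aged mice with standard errors for 31 tested members, over all 24 mice (open) and with a term for the sets (filled, starred where called). All 31 values lie above 0 in both, and 5 endothelial members are starred.

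In aged mice 22 of 25 tested genes of a further endothelial list, 10 of 11 of a mural list, 15 of 16 of a fibroblast list and 6 of 6 basement membrane genes were positive, with none called. These lists are not particular to vessels here: the endothelial one summed to 317 to 882 CPM in cultures and 466.4 to 779 CPM in aged mice, and the mural one to 6.99 to 336 and 31.98 to 67.4 CPM. Blood genes ran from 28.3 to 193 CPM with upACSS2 and from 26.3 to 71.5 CPM with vector, and choroid plexus genes from 25.5 to 2140.2 and 52.1 to 2578 CPM. Their part in the result was not tested.

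Fibroblast members were high together in some aged mice, described after their values were seen. Ptgds was at 830.4, 633, 501 and 499 CPM in upACSS2 replicates 1, 5, 8 and 9, and at most 307 CPM in any other aged mouse. The same mice had 12.9, 14.4, 13.6 and 13.3 CPM of Col1a2, against at most 7.28 CPM in the rest, and 13.3, 11.2, 10.3 and 10.5 CPM of Slc6a13, a GABA transporter of meningeal cells. Dcn was at 44.7, 96.6, 63.8 and 66.6 CPM there, so that replicates 5, 8 and 9 were among the highest for it, with replicate 11 at 65.9 CPM, and replicate 1 was not.

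Over the 18 mice of replicates 4 to 12, 8 pairs of genes were compared by Pearson's r and Spearman's rho with permutation tests. Cldn5 and Pecam1 were related at r = 0.88 and rho = 0.83 (adjusted permutation p 4e-05 and 0.0002), and Cldn5 and Pdgfrb at r = 0.83 and rho = 0.81 (0.00024 and 0.000267). Ptgds and Col1a2 were related at r = 0.95 and rho = 0.87 (adjusted permutation p 4e-05 and 8e-05). Without the 2 mice farthest from the median these r values were 0.83, 0.78 and 0.91. Acta2 and Tagln had r = 0.63 and rho = 0.55 (adjusted permutation p 0.00904 and 0.0397), and 0.46 without 2 mice. Cldn5 and Col1a2 had r = 0.57 (adjusted permutation p 0.021) but rho = 0.40 (0.137), and r fell to 0.34 after the mean of each virus group was subtracted. Acta2 with Pdgfrb (r = 0.47, and 0.65 without 2 mice), Col1a2 with Dcn (r = 0.23, and -0.12 without 2 mice) and Ptgds with the choroid plexus gene Ttr (r = -0.01) did not pass, at adjusted permutation p of 0.0696, 0.412 and 0.984. In the 6 mice of replicates 1 to 3, r was 0.71 for Cldn5 and Pecam1, 0.17 for Cldn5 and Pdgfrb and 0.90 for Ptgds and Col1a2. It was 0.86 there for Acta2 and Tagln, 0.70 for Col1a2 and Dcn, 0.15 for Cldn5 and Col1a2, 0.16 for Ptgds and Ttr, and -0.16 for Acta2 and Pdgfrb.

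In 10-month mice none of 29 members was called for upACSS2 against vector, as no gene was (0%, edgeR, with 1204 at an unadjusted p under 0.05). Endothelial members had a median of 0.10 and mural members of -0.07, and 7 of 7 fibroblast members were negative, with a median of -0.70. Dcn was at 19.3, 25.8, 30.9, 8.30 and 7.91 CPM with vector and between 1.98 and 15.5 CPM with upACSS2, with overlap, at -1.16 ± 0.44. Lum was at -0.70 ± 0.30.

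In PS19 mice 1 month after injection none of 32 members was called for upACSS2 against vector (0%, edgeR, with 463 genes at an unadjusted p under 0.05), and 7 of 32 were positive. At 6 months none was called either (0%, edgeR, with 2237), and 13 of 14 endothelial members were positive, with a median of 0.25. Of 9 mural members 5 were positive (median 0.16), and of 9 fibroblast members 5 (median 0.04). Itm2a was at 26.7, 30.2, 31.9, 25.4 and 28.5 CPM with upACSS2 and 19.8, 21.4, 22.1, 19.3 and 18.7 CPM with vector, without overlap, at 0.49 ± 0.10 (edgeR adjusted p 0.147). Slco1a4, an organic anion transporter of the barrier, at 0.56 ± 0.14 and Rgs5 at 0.52 ± 0.14 did not overlap between groups either. The share of all genes without overlap is not given here. The mural Abcc9 went the other way, from 2.94 to 5.25 CPM with upACSS2 and from 5.07 to 9.09 CPM with vector. The interaction of virus and time called none of 32 (0% of genes), with Itm2a at 0.60 ± 0.14.

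Between 1 and 6 months 2 of 32 members were called with vector, against 7.46% of genes. Abcc9 was at 1.59, 2.27, 2.93, 4.001 and 2.70 CPM at 1 month and 5.94, 5.07, 9.09, 6.85 and 5.38 CPM at 6 months, without overlap, and rose by 1.26 ± 0.22 (edgeR adjusted p 0.00354), a call kept in 15 of 15 alternatives. Itm2a fell by 0.33 ± 0.10 (edgeR adjusted p 0.0497), a call lost in 8 of 10 left-out fits, all but those without 1-month replicates 3 and 5. With upACSS2 2 of 32 were called, against 0.0442% of genes. Slco1a4 was at 11.9, 13.9, 12.9, 11.1 and 16.5 CPM at 1 month and 22.1, 24.4, 21.6, 21.7 and 26.8 CPM at 6 months, and rose by 0.81 ± 0.14 (edgeR adjusted p 0.0338). Rgs5 was at 44.0, 36.9, 45.6, 32.8 and 41.6 CPM and then 67.7, 76.7, 76.1, 64.3 and 69.4 CPM, and rose by 0.82 ± 0.14 (edgeR adjusted p 0.0367). Neither gene overlapped between times, and both calls were lost in 9 of 10 left-out fits, all but that without 6-month replicate 4. Tissue changed from whole to dorsal hippocampus between these upACSS2 groups, so time and tissue cannot be told apart.

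**Figure D5:**
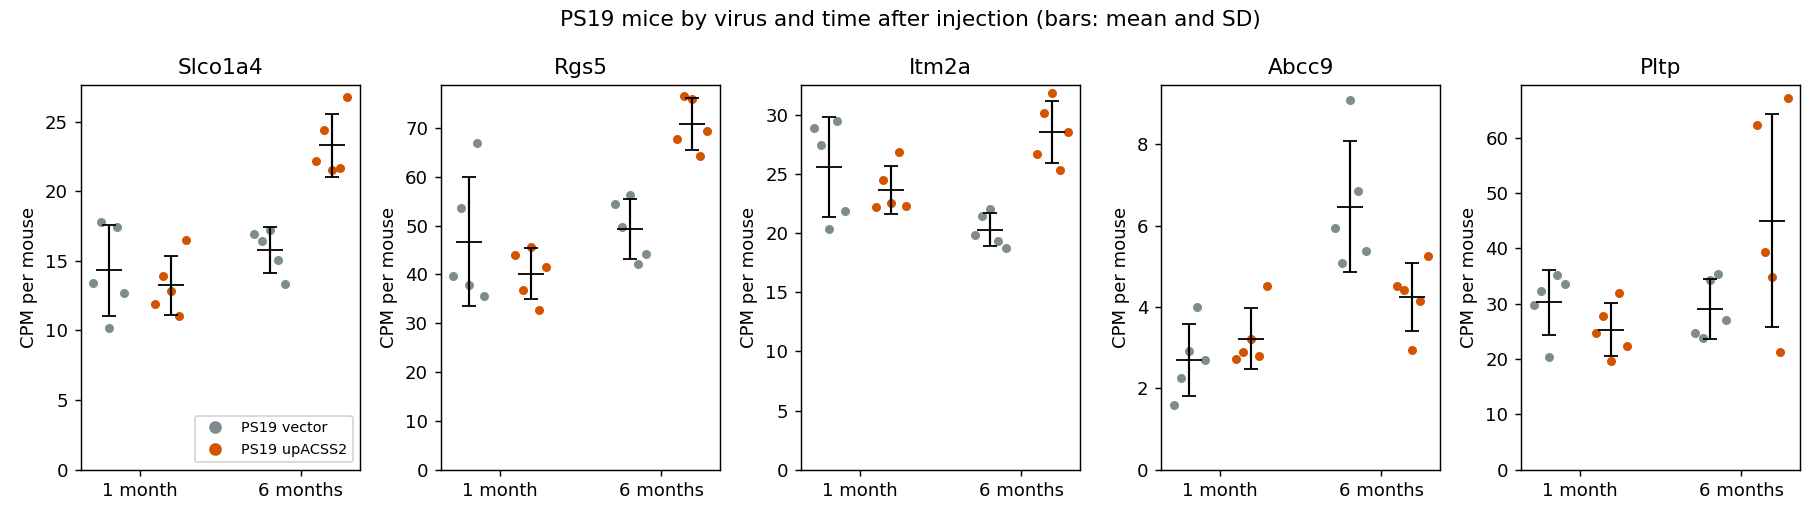
CPM of Slco1a4, Rgs5, Itm2a, Abcc9 and Pltp in each PS19 mouse (dots) by virus and time after injection, with mean and SD as bars. At 6 months the 5 upACSS2 mice lie above the 5 vector mice for Slco1a4, Rgs5 and Itm2a.

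Igf2 and Pltp were high in the same upACSS2 mice at 6 months, described after their values were seen. Igf2 was at 2.15, 1.05, 0.252, 0.387 and 2.11 CPM and Pltp at 62.4, 39.4, 34.9, 21.3 and 67.2 CPM in replicates 1 to 5. Summed choroid plexus genes in these mice were at 6164, 2249, 635, 132 and 3507 CPM, against 86.3 to 465 CPM with vector, and their part in the result was not tested.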

How the data were processed

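The authors deposited raw counts of reads per gene, 1 table for each of 6 sets of libraries. The submitters' processing notes name STAR, featureCounts, HTSeq, DESeq2 and build mm10 without roles; strand setting and annotation are not given in the sources used here. In the table without virus, a row naming no gene, with 6.13 to 8.74% of the counts, was dropped before scaling. Counts were scaled by TMM and tested with edgeR 4.0.16 (quasi-likelihood, R 4.3.3) after its filter on low counts, with Benjamini-Hochberg adjustment over all tested genes and a threshold of 0.05. CPM use the TMM-scaled library size. DESeq2 1.42.0 and limma 3.58.1 (voom) were alternatives, and the scripts were tested on simulated data. Groups come from sample titles. Where nothing says replicates are separate cultures or animals, p-values measure only the spread between these samples. Of 242 pairs of libraries within groups, none looked like 1 library deposited repeatedly (chi-square per gene of at least 2.24). Same-numbered samples were taken as pairs only where every correlation of deviations passed 0.1: stimulated upACSS2 against vector in hAD-tau (0.111 to 0.359), stimulated hAD-tau against PBS with vector (0.123 to 0.326), and hAD-tau against PBS without virus (0.220 to 0.394). Members named are those past the threshold, or else those with the lowest unadjusted p in a class, and the highest and lowest by level; others are said to be chosen after their values were seen. The members and lists were chosen with earlier results of these data known. Promoter sequences are from RefSeq (GRCm38.p6); 23 of 32 members had one.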

Additional observations from a re-analysis of the deposited data

Results flagged for a closer look

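Within groups of 4 to 10 libraries, 204 sets of values of members with a mean of at least 1 CPM were checked for 1 library standing apart from the rest by Dixon's test, and 18 were found, where chance at 1 in 20 gives 10.2. In cultures without virus, Acta2 was at 8.64 CPM in hAD-tau replicate 4 and at 0.0462 to 0.198 CPM in the others. In 10-month mice, upACSS2 replicate 1 was high in Anpep (2.50 CPM) and Col1a2 (19.4 CPM), vector replicate 1 was high in Tie1 (3.66 CPM) and vector replicate 4 low in Myl9 (2.89 CPM). In PS19 mice with upACSS2 at 1 month, Cdh5 was low in replicate 3 (1.78 CPM), Abcc9 high in replicate 5 (4.51 CPM), and the collagens Col1a1 (7.68 CPM) and Col3a1 (3.84 CPM) high in replicate 4. At 6 months, upACSS2 replicate 2 was high in Col1a2 (13.99 CPM) and Lum (8.20 CPM). With vector at 1 month, Flt1 was high in replicate 4 (27.6 CPM), Notch3 in replicate 5 (8.61 CPM) and Lum in replicate 1 (6.42 CPM), and Ptgds was low in replicate 3 (147 CPM, against 241 to 260.3 CPM). With vector at 6 months, Dcn was high in replicate 2 (34.9 CPM, against 3.37 to 10.7 CPM), and replicate 5 was low in Myl9 (2.67 CPM) and Mgp (3.54 CPM).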

How the results depend on the processing

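No called member changed direction in any alternative. Of the repeated values for called members 444 kept their call and 124 lost it, and of the repeated counts of called members 322 stayed within 1.5 times and 57 did not. The cause of these changes was not tested. Without the filter on low counts, members called were 2 for upACSS2 in PBS and 2 for hAD-tau with upACSS2 on day 9, and 1 for PS19 vector over time. With the replicate block they were 1 for upACSS2 in PBS on day 9, 1 for upACSS2 in hAD-tau, 2 for hAD-tau with vector and 1 for the interaction in stimulated cultures, 6 in aged mice, and 1 with vector and 0 with upACSS2 for PS19 over time. With all 24 unstimulated libraries in 1 fit they were 0 for hAD-tau with vector on day 9, and 3 in PBS and 4 in hAD-tau for upACSS2 on day 21. With only the groups compared they were 1 for upACSS2 in PBS on day 9, 0 for hAD-tau with vector when stimulated, 5 between days in vector with PBS, and 1 and 1 for PS19 over time. DESeq2 gave 1 for upACSS2 in PBS on day 21, 2 and 2 for upACSS2 in hAD-tau and hAD-tau with vector when stimulated, 1 without virus and 2 in PS19 mice at 6 months, and voom gave 6 between days in vector with PBS. In aged mice the term for sets gave 5 and replicates 4 to 12 gave 1. Leaving out 1 library gave 0 to 1 for upACSS2 in PBS and 0 to 2 for hAD-tau with vector on day 9, 0 to 1 for hAD-tau with vector when stimulated, 5 to 10, 8 to 11, 6 to 9 and 6 to 11 between days (vector with PBS and hAD-tau, upACSS2 with PBS and hAD-tau), 1 to 3 and 0 to 2 for PS19 over time with vector and upACSS2, and 0 to 1 in PS19 mice at 6 months. The relation of Cldn5 and Col1a2 fell to r = 0.34 after the mean of each virus was subtracted. Low counts limit the culture values: Cldn5, Cdh5, Tie1 and Ly6c1 were at or near 0 there.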
